A study of Mus musculus with 20 samples.

Results

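Skin of Sod2 conditional knockout mice (cKO) was set against control skin at 300 days of age. The comparison takes every sample that the labels place at this age, 3 control and 3 cKO samples of the 20 in the series. All mice were C57BL/6, an inbred laboratory strain, and RNA was taken from total skin. Control mice were Sod2+/+ and cKO mice Sod2-/-. The labels name no other allele and no treatment, and they do not say which Cre line or which skin cells carried the deletion. Skin of the same genotypes at 100 days (2 control and 3 cKO samples) is given as context. Control skin at 50 days (5 samples) and at 700 days (4 samples) also serves as context and enters the filter on low values. The series title concerns the transcription factor subunit JunB in fibroblasts and the aging of skin.

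Sod2 encodes the superoxide dismutase of the mitochondrial matrix, which turns superoxide from the respiratory chain into hydrogen peroxide. JunB is a subunit of AP-1, a dimeric transcription factor that responds to stress and growth factor signals. Skin is a layered organ. Keratinocytes build the epidermis and hair, fibroblasts lay down the collagen of the dermis, adipocytes fill the layer under it, and resident immune cells are spread through all of them.

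The authors deposited 1 FPKM value per gene and group (fragments scaled to gene length and to the size of the library), so no value has a replicate error and no difference was tested. Values are given as cKO against control skin, and log2 ratios are of (FPKM + 1), which understates the change of low genes. The size counted was a log2 ratio of 1 or more in either direction. The 12113 named genes whose FPKM averaged 1 or more in the 6 groups of the series entered, and of these 220 were higher in cKO skin (1.82%) and 614 lower (5.07%), 6.89% in all, and the median ratio was -0.01. Past a size of 2 there were 35 higher and 120 lower genes. Of all 12113 ratios 5891 lay above 0 and 6218 below, the shares beside which counts by sign in the lists are to be read. The 39 genes listed at 0 in a 300-day group entered these counts, but are given no fold. In the plot of all genes the lower genes with the highest levels are those of fat, such as Scd1, Cfd and Car3. In whole skin, fewer cells of a type and less RNA per cell cannot be told apart.

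**Figure D1:**
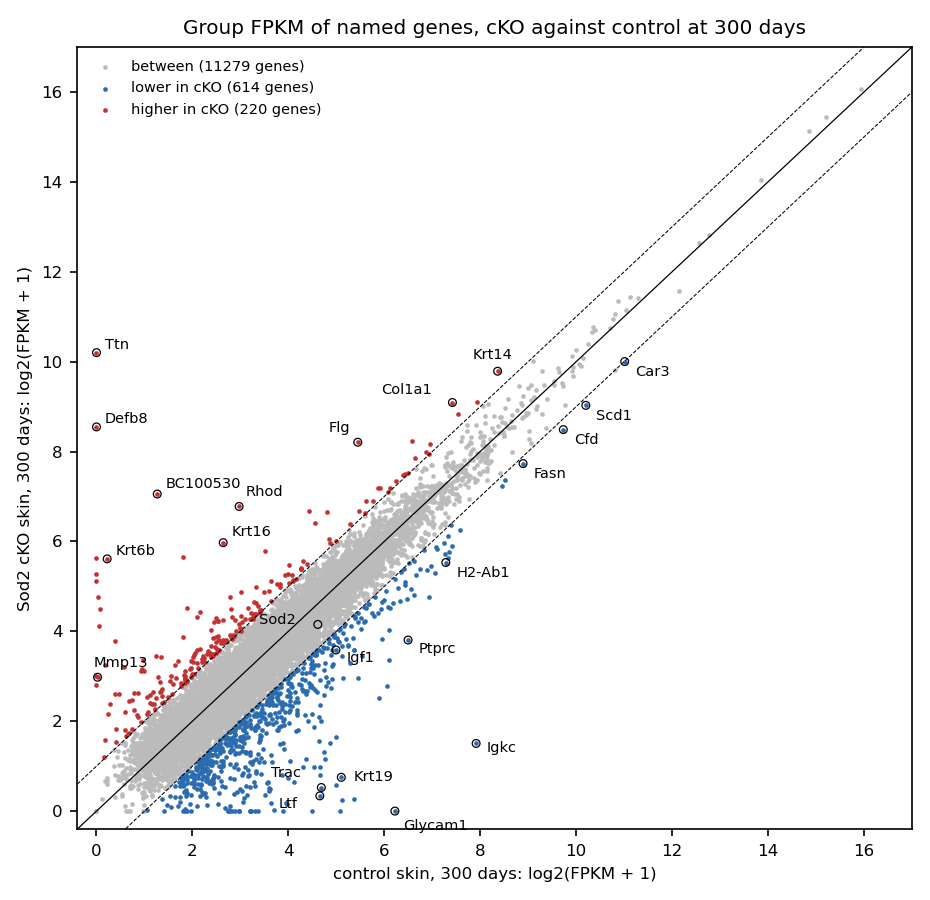
Each point is 1 of 12113 named genes, with log2(FPKM + 1) of control skin on the x axis and of cKO skin on the y axis at 300 days; dashed lines mark a log2 ratio of 1 in either direction, and circles mark labelled genes. The 614 lower genes (blue) form a broad cloud below the diagonal that holds Igkc, Ptprc and Krt19, and the 220 higher genes (red) include Defb8 and Ttn, which are listed at 0 in control skin.

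The groups also differed in sex-linked transcripts, as they did at 100 days. In cKO skin the genes Uty, Kdm5d, Ddx3y and Eif2s3y of the Y chromosome were 26, 16.4, 21.4 and 37.5 FPKM. In control skin Eif2s3y was listed at 0 and the other three were at most 0.0556 FPKM. Xist, the RNA that coats the inactive X chromosome, was 17.2 against 2187 FPKM, in a row that also carries other symbols. Genotype and this difference cannot be told apart in any value below. Of 340 genes on the X chromosome 1 was higher and 11 lower, and without genes on X and Y 215 were higher and 603 lower.

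Markers of skin cell types were present in both groups. The summed FPKM of 4 keratinocyte markers was 2649.7 in cKO and 1427 in control skin, and that of 3 adipocyte markers 116 and 301. For 2 muscle markers the sums were 3197 and 2763, so muscle transcripts were high in both groups. Mouse skin includes a thin sheet of striated muscle, the panniculus carnosus. Markers of red cells summed to 162 and 164 FPKM. A set of 3 B cell markers summed to 0.104 against 24.6 FPKM, 3 T cell markers to 2.05 against 41.6 FPKM, and 5 markers of lymph node stroma to 3.4 against 116 FPKM. At 100 days B cell markers summed to 0.572 in cKO and 0.0382 FPKM in control skin, T cell markers to 2.28 and 2.15 FPKM, and lymph node stroma markers to 18.9 and 1.29 FPKM. The stroma sum at 100 days was thus the higher one in cKO skin, where Cxcl13 alone was 17.7 FPKM. In the 300-day control the sum came mostly from Glycam1 (73.6 FPKM) and Cr2 (30.7 FPKM). Mammary gland also expresses Glycam1, and B cells express Cr2. Ccl21a was listed at 0 in all 4 groups, and Madcam1 was at most 0.196 FPKM, so the sums do not show stroma by themselves.

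Sod2 (chr17:13006846-13040063, GRCm38) was 16.8 against 23.5 FPKM at 300 days, a log2 ratio of -0.46, short of the size counted. At 100 days it was 17.6 against 27.7 FPKM (-0.63). The value pools all exons and all cells of the skin, so it does not show which cells lack the deleted exons. Junb was nearly level at 300 days, with 26.2 against 24.5 FPKM (0.09), and higher at 100 days by 0.73. Its annotated span overlaps that of Prdx2.

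Many of the lowest ratios belonged to genes of B and T lymphocytes. The B and plasma cell list had 17 of 19 measured genes lower and none higher, with a median log2 ratio of -3.12 against -0.01 for all genes. The kappa light chain Igkc was 1.84 against 240.2 FPKM, the lambda chain Iglc3 0.206 against 40.1 FPKM, and Ighd, the heavy chain of IgD on naive B cells, 0.194 against 33.6 FPKM. Light chain and heavy chain genes have close copies among which reads can be shared. Cd22, an inhibitory receptor of B cells, was 0.125 against 14.5 FPKM. Cr2, the complement receptor of B cells and follicular dendritic cells, was 0.488 against 30.7 FPKM (-4.41). Pax5, the factor that commits cells to the B lineage, and Ms4a1, which encodes CD20, were listed at 0 in cKO skin and at 13.8 and 6.81 FPKM in control skin. All 13 measured genes of the B cell receptor and surface were lower. Ebf1 and Blnk, which other skin cells also express, were the 2 that were not counted, at 18.1 against 30.5 and 5.5 against 8.91 FPKM.

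Of 24 genes of T and NK cells 22 were lower and none higher (median -1.88). All 11 measured genes of the T cell receptor, CD3 complex and T cell surface were lower. Trac, the constant region of the receptor's alpha chain, was 0.439 against 24.8 FPKM (-4.16), and the adhesion molecule Cd2 1.24 against 26 FPKM. The co-receptor genes Cd4 and Cd8b1, which part helper from cytotoxic T cells, were 0.555 against 10.9 FPKM and at 0 against 8.32 FPKM. Ccr7, the chemokine receptor that lets naive lymphocytes enter lymph nodes, was 0.368 against 7.2 FPKM. The T cell kinase gene Lck shares its row with a microRNA and stood at 1.80 against 35.0 FPKM. Lef1 was the 1 gene of the list with a positive ratio (0.75). It also serves Wnt signalling in the hair follicle.

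Not all T cell genes followed this direction. Dendritic epidermal T cells, which carry gamma-delta receptors, are resident in mouse epidermis. Their receptor genes Trdc, Tcrg-C1 and Tcrg-V5 were level, at 1.03 against 1.02, 2.36 against 1.74 and 2.55 against 2.41 FPKM. Of the 8 genes of that list, Cd7, Fcer1g and Xcl1 were lower (ratios of -1.12 to -1.08), Trdv4 was -0.64 and the activating receptor Klrk1 0.02. The median was -0.32.

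Some genes that mark lymph node tissue were lower as well. Of 13 listed genes 8 passed the filter on low values, and 5 of these were lower (median -2.55). With no filter the median was -0.68, and Glycam1 passed the filter only through its level in the 300-day control. Glycam1, a mucin of high endothelial venules and also of mammary gland, was listed at 0 in cKO and at 73.6 FPKM in control skin. Ltb, which encodes lymphotoxin beta, was 0.568 against 16.3 FPKM, and Cxcl13, the chemokine of B cell follicles, 2.91 against 11.1 FPKM (-1.63). Other defining markers were at or near 0 in both groups. Ccl21a was at 0 in both and Madcam1 at 0 against 0.196 FPKM. Without any of the lymphocyte, lymph node, antigen presentation and glandular lists, 220 genes were higher and 539 lower. Only list members were removed. Of the 614 lower genes 454 are in no list, with white blood cell genes such as Ptprc among them, and these stay in the 539. The count thus does not show how many lower genes belong to such cells. Whether the 300-day control samples held lymphoid tissue was not tested.

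Among the 4 groups at 100 and 300 days, most of the lower lymphocyte genes were high in control skin at 300 days alone. For 17 of the 17 lower B cell genes and 21 of the 22 lower T and NK cell genes, the 300-day control stood at least 1 log2 unit above each of the other 3 groups. Igkc was 1.88 in cKO and 5.76 FPKM in control skin at 100 days, and Trac 0.361 and 0.836 FPKM. Of the 5 lower lymph node genes 3 had this pattern, and Cxcl13 did not, at 17.7 in cKO and 0.152 FPKM in control skin at 100 days. Over all 614 lower genes this pattern held for 260 (42.35%). In a pattern that can overlap with it, 103 (16.78%) were lower in both cKO groups than in both control groups. A further pattern, the 300-day cKO apart from the other 3 groups, held for 33, and 223 showed none of these 3 patterns.

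**Figure D2:**
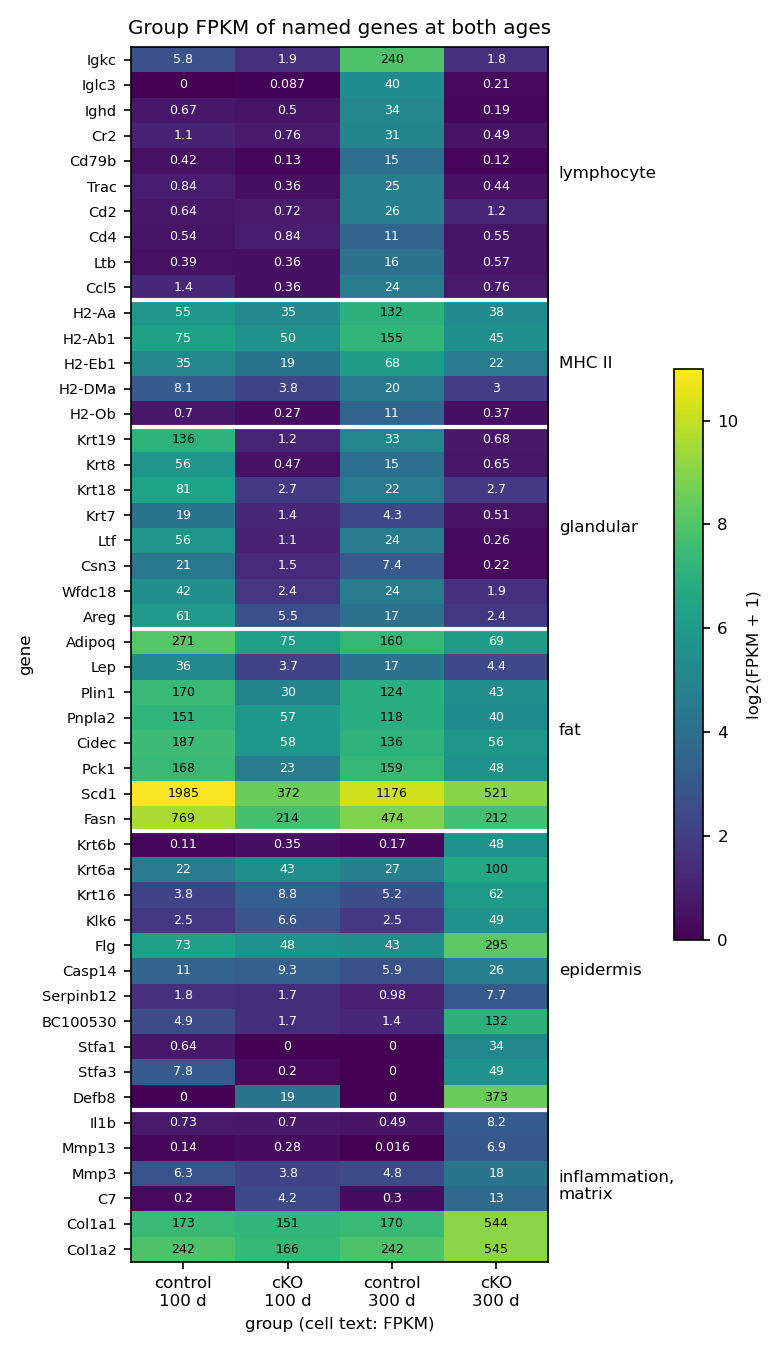
Group levels of selected genes at 100 and 300 days, with the FPKM written in each cell and its log2(FPKM + 1) as colour. Igkc, Iglc3 and Trac are high in the 300-day control column only, the fat and glandular genes are high in both control columns, and Krt6b, Krt16, Flg and Mmp13 are high in the 300-day cKO column.

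MHC class II molecules show peptides to helper T cells, and B cells, dendritic cells and macrophages carry them. All 8 measured genes of class II and its loading were lower (median -1.75). The chains H2-Aa, H2-Ab1 and H2-Eb1 were 38.5 against 132, 45.2 against 155 and 22.1 against 68.1 FPKM. The peptide loading genes H2-DMa, H2-DMb1 and H2-DMb2 were 3.04 against 20.1, 3.97 against 9.22 and 1.12 against 9.51 FPKM, where H2-DMb1 and H2-DMb2 are close copies that can share reads. H2-Ob, which restrains H2-DM and is found mainly in B cells, had the lowest ratio of the list, -3.13. Ciita, the coactivator that switches class II genes on, was 1.29 against 5.46 FPKM, and Cd74, the invariant chain, in a row shared with a microRNA, 107 against 363 FPKM. At 100 days none of the 8 was counted, and the median was -0.59.

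These genes were lower together, and their promoters are known to share a set of short elements that includes the Y box, bound by the factor NF-Y. The letters TGATTGG, the core of that box, were searched on both strands of the 250 bases before each start in the RefSeq promoter table (GRCm38.p6). They occur in 7.23% of its 32851 promoters and in 7 of the 8 class II genes with an entry. These are not the same 8 genes as those measured. H2-Eb2 and H2-Oa, which hold the letters, are not among the measured genes found lower. H2-DMa is the gene without a match. H2-Ab1, Cd74 and Ciita have no entry. The last 150 bases before the start are shown for 5 genes, on the strand of the gene, with the matched letters in capitals, to let their spacing be compared. They are chr17:34287824-34287973 (minus strand) for H2-Aa, and, on the plus strand, chr17:34305717-34305866 for H2-Eb1, chr17:34153041-34153190 for H2-DMb1, chr17:34145099-34145248 for H2-DMb2 and chr17:34238755-34238904 for H2-Ob.
H2-Aa: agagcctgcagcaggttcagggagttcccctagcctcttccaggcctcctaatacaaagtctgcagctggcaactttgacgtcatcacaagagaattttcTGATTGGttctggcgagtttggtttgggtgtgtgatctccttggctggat
H2-Eb1: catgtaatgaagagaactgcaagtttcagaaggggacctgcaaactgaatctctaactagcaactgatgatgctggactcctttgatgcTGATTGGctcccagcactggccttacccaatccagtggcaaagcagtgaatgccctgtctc
H2-DMb1: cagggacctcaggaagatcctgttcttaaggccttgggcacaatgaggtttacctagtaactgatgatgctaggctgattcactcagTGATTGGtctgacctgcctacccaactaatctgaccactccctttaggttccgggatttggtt
H2-DMb2: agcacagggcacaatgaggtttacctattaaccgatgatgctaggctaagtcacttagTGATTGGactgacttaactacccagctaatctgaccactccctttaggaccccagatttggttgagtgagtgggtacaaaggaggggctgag
H2-Ob: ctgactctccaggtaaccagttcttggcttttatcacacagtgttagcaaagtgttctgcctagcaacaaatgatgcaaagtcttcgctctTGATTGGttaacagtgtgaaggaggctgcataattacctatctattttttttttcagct
The first matched base lies 50, 61, 63, 92 and 59 bases before the start in H2-Aa, H2-Eb1, H2-DMb1, H2-DMb2 and H2-Ob. A match describes the letters and is neither a site nor a cause, and among all genes compared here 10.7% of those with a promoter held the same letters. They were in 40 of 441 lower genes with a promoter (9.07%) and in 26 of 168 higher genes (15.5%), so lower genes as a whole did not hold them more often.

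Class I genes, which nearly all cells express, stood lower by less. Of 13 measured genes 5 were lower (median -0.75). Psmb8, Psmb9 and Psmb10, the subunits of the immunoproteasome that cuts peptides for class I, were 13.5 against 39.9, 7.38 against 19.7 and 3.14 against 10.4 FPKM. The other 2 were H2-Q7 and H2-Q6, close copies of each other (-1.24 and -1.03). The light chain B2m was 307 against 516 FPKM (-0.75), and Nlrc5, the class I coactivator, had a ratio of 0.22. Interferon gamma targets had a median of -1.07 with 5 of 9 lower, Irf1 and Iigp1 among them at 5.56 against 18.5 and 5.44 against 14.9 FPKM. None of 19 genes of the type I interferon response was counted (median -0.46). Isg15, a ubiquitin-like protein of that response, was 9.2 against 13 FPKM.

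Macrophage genes were lower as well, from a level that was present in all 4 groups. Of 22 genes of macrophages and monocytes 14 were lower and none higher (median -1.21). C1qa, C1qb and C1qc, the chains of complement C1q that tissue macrophages make, were 15.7 against 44.5, 22.4 against 66.4 and 13.2 against 35.8 FPKM. Lyve1, a hyaluronan receptor of vessel-associated macrophages and lymphatic vessels, was 4.04 against 15.9 FPKM (-1.75). The mannose receptor Mrc1 was 13.5 against 31.4 FPKM and Ccr2, the receptor that draws monocytes into tissue, 2.98 against 12.3 FPKM. Csf1r, the growth factor receptor on which macrophages depend, was 12.1 against 23.3 FPKM (-0.90), short of the size counted. For 8 of the 14 lower genes the 300-day control stood above the other 3 groups. Ms4a7 had a positive ratio (0.61).

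Other immune lists held fewer counted genes. None of 9 mast cell genes was counted (median -0.27), and the proteases Mcpt4 and Cpa3 were 6.2 against 11 and 5.5 against 4.68 FPKM. Of 8 dendritic and Langerhans cell genes Ccr7, Mgl2 and Itgax were lower (median -0.89), while Cd207, the langerin of Langerhans cells, was 4.6 against 5.75 FPKM. Among 16 chemokines Cxcl15, Ccl6, Ccl9 and Ccl12 were lower. Ccl6 and Ccl9, which macrophages make, were 29.6 against 93.8 and 19.1 against 54.2 FPKM. Cxcl2, which draws neutrophils, was the 1 chemokine that was higher, at 6.03 FPKM in cKO skin and listed at 0 in control skin.

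Another large group of lower genes belongs to simple and glandular epithelium, and here the ages were alike. Of 20 measured genes 17 were lower and none higher (median -2.50). Krt8, Krt18 and Krt19, keratins of simple epithelium, were 0.654 against 15, 2.66 against 22.3 and 0.684 against 33.4 FPKM. At 100 days the same genes were 0.472 against 55.8, 2.67 against 81.3 and 1.21 against 136 FPKM. Wfdc18 and Csn3, a secreted inhibitor-like protein and a casein, are mammary gland products and stood at 1.93 against 23.9 and 0.222 against 7.38 FPKM. The receptors Oxtr for oxytocin and Pgr for progesterone were 1.85 against 28 and 0.0525 against 5.43 FPKM. Ltf, the iron-binding lactoferrin of secretions and neutrophils, was 0.264 against 24.2 FPKM (-4.32). In 15 of the 17 lower genes both cKO groups lay below both control groups. The milk genes Csn2 and Wap were at or below 0.124 FPKM in both 300-day groups. The sex-linked difference runs the same way at both ages, and its part in this list was not tested.

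Fat genes were lower in cKO skin at both ages too. Of 41 adipocyte genes 19 were lower and 1 higher (median -0.97). Among hormones of fat, leptin (Lep) was 4.37 against 17.5 FPKM and adiponectin (Adipoq) 68.7 against 159.8 FPKM. Pparg, the factor that drives fat cell formation, was 10.2 against 23 FPKM (-1.10). Plin1 and Plin4, coats of the lipid droplet, were 42.7 against 124 and 37.2 against 100.0 FPKM. The lipases Pnpla2 and Lipe, which release fatty acids from it, were 40.2 against 118 and 24.1 against 61.2 FPKM. Pck1, which supplies glycerol for new fat, was 48.2 against 159 FPKM (-1.71), and the fatty acid transporter Cd36 165 against 364 FPKM. The gene that was higher, Apoc1, an apolipoprotein, was 179.9 against 84.8 FPKM.

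All 19 lower adipocyte genes were lower at 100 days as well, and in 16 both cKO groups lay below both controls. The ratios at 100 days reached further: the identity genes had a median of -1.61 there against -1.10 at 300 days. Lep was 3.73 against 36.1 FPKM and Adipoq 75.5 against 271 FPKM at 100 days. In cKO skin both genes were thus at like levels at the 2 ages, and the control levels were lower at 300 days. The difference between the ages was not tested.

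Enzymes of lipid synthesis were split by pathway. For fatty acid synthesis 3 of 13 genes were lower (median -0.63): Thrsp, a lipogenic regulator, Scd1, which desaturates fatty acids, and Fasn, the fatty acid synthase. They were 75.7 against 190.1, 521 against 1176 and 212 against 474 FPKM. None of 19 sterol synthesis genes was counted (median 0.08). None of 23 genes of the epidermal lipid barrier was counted either (median 0.16). Of these, Elovl4 and Abca12, which make and load the very long ceramide lipids of the barrier, had the ratios 0.75 and 0.82. In the sebaceous gland list Pparg was the 1 gene counted of 17, and the wax enzyme Far2 and the duct keratin Krt79 were 11.5 against 5.64 and 62.6 against 32.7 FPKM. The thermogenic gene Ucp1 of brown fat was 11 against 29.2 FPKM, and Zic1 was the other lower gene of the 9 in that list (-1.59).

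**Figure D3:**
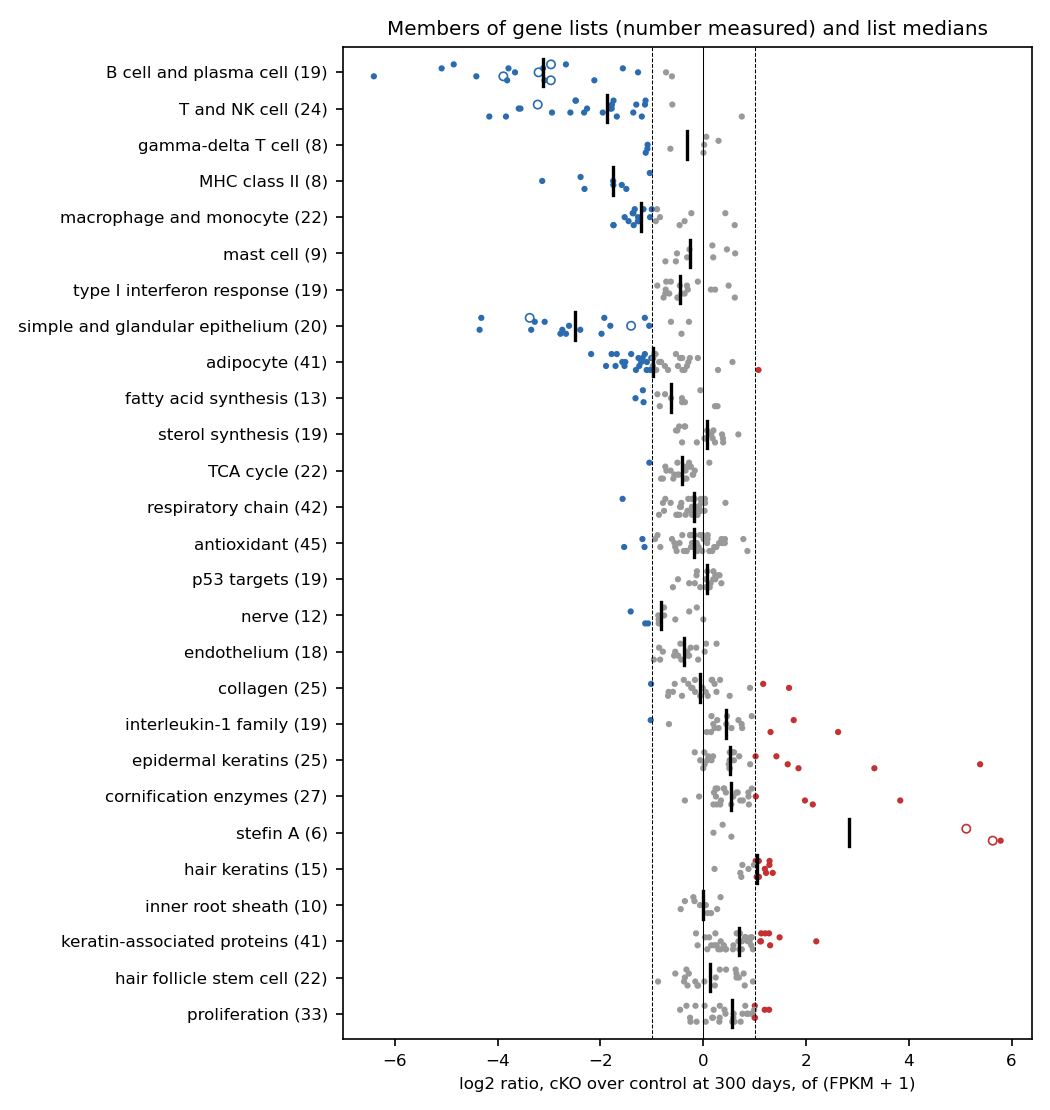
Log2 ratio of (FPKM + 1), cKO over control skin at 300 days, for each measured member of the lists named on the y axis; black bars are list medians, dashed lines mark a size of 1, and open circles are genes listed at 0 in 1 of the groups. Most lymphocyte, MHC class II, glandular and adipocyte members lie left of 0, with medians from -0.97 to -3.12, and all stefin A and hair keratin members lie to the right, with medians of 2.83 and 1.04.

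In the epidermis, 3 of 5 keratins of the stress and companion layer were higher. Of 25 genes of epidermal keratins and basal attachment 6 were higher and none lower. Krt6a, Krt6b and Krt16, the keratins of wounded epidermis and of the hair follicle's companion layer, were 99.8 against 26.9, 47.9 against 0.167 and 61.8 against 5.24 FPKM. Krt6a and Krt6b are near-identical and can share reads. Their partner Krt17 was 442 against 313 FPKM (0.50). Krt14 of the basal layer was 882 against 328 FPKM while its partner Krt5 was 578 against 381 FPKM (0.60). In the layers above, Krt1 was 299 against 94.9 FPKM and its partner Krt10 891 against 624 FPKM (0.51). In both of these pairs 1 partner was counted and the other was not.

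Genes of the outermost layers were mixed. Of 27 genes of the epidermal differentiation complex, the cluster that encodes the cornified envelope, 5 were higher and none lower (median 0.11). Flg, which encodes filaggrin, the protein that bundles keratin and is cut to moisturizing amino acids, was 295 against 42.6 FPKM, and its relative Hrnr 17.6 against 4.5 FPKM. Flg is split over several rows, of which the highest was taken. Flg2 was 399 against 273 FPKM (0.55), and the structural proteins Sprr1b, Lce1g and Lce1e were higher by 1.28, 1.47 and 1.06. Among 27 enzymes and inhibitors of cornification 4 were higher (median 0.55, with 25 above 0). The kallikrein protease Klk6 was 49.1 against 2.51 FPKM, Casp14, which cuts filaggrin, 26.1 against 5.86 FPKM, and the protease inhibitor Serpinb12 7.7 against 0.984 FPKM. Klk10 was the other (1.02).

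These epidermal differences were in part those of the 300-day cKO group alone. Flg was 47.9 in cKO and 73 FPKM in control skin at 100 days, Krt6b 0.347 and 0.114 FPKM, and Krt1 104 and 148 FPKM. Of the 6 higher keratin genes 4 stood in the 300-day cKO at least 1 log2 unit above the other 3 groups, and 1 was also higher at 100 days. That one was Krt16, at 8.81 against 3.84 FPKM. The 300-day cKO stood apart in this way for 2 of the 7 higher cornified envelope genes and for 3 of the 4 higher cornification enzyme genes. Of all 220 higher genes, 58 (26.36%) stood apart in the 300-day cKO in this way.

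Stefin A genes encode inhibitors of cysteine proteases and lie in a cluster of close copies on chromosome 16. BC100530 was 132 against 1.41 FPKM. In cKO skin Stfa1 stood at 33.8 and Stfa3 at 48.7 FPKM, and control skin has both listed at 0. These copies can share reads, so the split among them is uncertain, but the sum over the 6 measured genes of the list was 324 against 83.9 FPKM. Csta1 and the unlinked Cstb, stefins of the healthy epidermis, were 64 against 43.4 and 43 against 37.3 FPKM, and Stfa2 was 2.68 against 1.83 FPKM. At 100 days Stfa3 and BC100530 were lower in cKO skin, at 0.202 against 7.78 and 1.71 against 4.86 FPKM.

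Of 11 measured antimicrobial genes 1 was higher and 5 lower (median 0.03). The higher one, the defensin gene Defb8, was 373 FPKM in cKO skin and listed at 0 in control skin. At 100 days it was 18.6 FPKM in cKO and again listed at 0 in control skin. Defb14, the mouse relative of human beta-defensin 3, ran the other way, listed at 0 in cKO and at 2.89 FPKM in control skin. Defb6 and Defb1 were not counted, at 117 against 69.8 and 17.9 against 12.1 FPKM. S100a8 and S100a9, the subunits of calprotectin in neutrophils and stressed keratinocytes, were 19.9 against 8.96 and 21.9 against 2.69 FPKM. Of the 5 measured neutrophil genes, Lcn2 and Ltf were lower, so the list did not move one way.

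Some inflammatory genes of the interleukin-1 family were higher. Of 19 genes of the family and its receptors 3 were higher and 1 lower, and 17 lay above 0 (median 0.45). Il1b, the inducible cytokine, was 8.18 against 0.488 FPKM, and Il1f8, the epithelial cytokine IL-36 beta, 4.46 against 0.61 FPKM. Il1rn, the antagonist that blocks the receptor, was 28.9 against 11 FPKM. The agonists Il1a and Il18 were 3.3 against 2.12 and 32.3 against 19.7 FPKM, within the size counted. Il1rl1, the receptor for IL-33, was the lower one (-1.02). The lectin receptor Clec4d of myeloid cells was 8.47 against 0.139 FPKM. Among complement genes C7, of the membrane attack complex, was 12.8 against 0.298 FPKM, while C3 and Cfd were lower, at 149.8 against 347 and 358 against 849 FPKM. Cfd is also a main product of fat cells and stands in the adipocyte list.

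The fibrillar collagens of the dermis split by chain. Col1a1 and Col1a2, the chains of collagen I, were 544 against 170.2 and 545 against 242 FPKM (1.67 and 1.17). At 100 days they were 151 against 173 and 166 against 242 FPKM, so the 300-day cKO stood above the other 3 groups for both. Col3a1, in a row with another symbol, was 2608 against 1736 FPKM (0.59), short of the size counted. At 100 days it was 881 against 1842 FPKM. Col5a1 and Col5a2, which start collagen I fibrils, were level at 300 days, at 23 against 25.7 and 66.8 against 67.3 FPKM, and Col5a3 was lower (-1.01). None of 16 network and basement membrane chains was counted, with Col4a1 at 79.1 against 128 FPKM. Of 19 genes that fold, crosslink and trim collagen, Plod2, a lysyl hydroxylase whose product sets the type of crosslink, was the 1 counted, at 4.41 against 16.6 FPKM (-1.70). The chaperone Serpinh1 was 50.3 against 63 FPKM and Sparc, a collagen-binding glycoprotein, 445 against 275 FPKM. Collagen I was thus higher without a counted change in its chaperone or most of its processing enzymes.

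None of 15 elastic fibre genes and none of 15 proteoglycan and hyaluronan genes was counted. Eln, the elastin gene, was 10.7 against 15.5 FPKM and decorin (Dcn) 298 against 193 FPKM. Thbs1, an adhesive glycoprotein that activates TGF-beta, was 43.4 against 15.2 FPKM, and was higher at 100 days too (1.15). Thbs4 and Wisp2 were lower (-1.29 and -1.30). None of 18 genes of TGF-beta ligands, receptors and Smads was counted. Fibroblast identity genes had a median of -0.43, and Pi16, Gpx3 and Thy1 of the 18 were lower. Pi16, which marks fibroblasts around vessels, was 7.79 against 25.6 FPKM, and Thy1, a surface glycoprotein that T cells carry as well, 18.7 against 45 FPKM. The fibroblast sum of the tissue check, 1387 against 605 FPKM, is made up mostly of collagen I chains.

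Of 18 genes of metalloproteinases and their inhibitors 2 were higher and 1 lower (median 0.05). Mmp13, a collagenase, was 6.88 against 0.0159 FPKM (2.96), and Mmp3, stromelysin 1, 17.9 against 4.76 FPKM (1.71). The gelatinase genes Mmp2 and Mmp9 were 40.2 against 27.4 and 5.77 against 2.47 FPKM, short of the size counted, and the inhibitor Timp4 was lower (-1.18). Mmp13 and Mmp3 are textbook AP-1 targets, and the series title names an AP-1 subunit, and their promoters were searched for the AP-1 letters TGANTCA, which read the same on both strands. The last 150 bases before the start are shown with the match in capitals, chr9:7272364-7272513 for Mmp13 and chr9:7445672-7445821 for Mmp3, both on the plus strand of GRCm38.p6 and from RefSeq.
Mmp13: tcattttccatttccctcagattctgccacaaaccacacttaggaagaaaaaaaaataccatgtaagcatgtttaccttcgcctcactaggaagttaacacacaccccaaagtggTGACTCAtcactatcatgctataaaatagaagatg
Mmp3: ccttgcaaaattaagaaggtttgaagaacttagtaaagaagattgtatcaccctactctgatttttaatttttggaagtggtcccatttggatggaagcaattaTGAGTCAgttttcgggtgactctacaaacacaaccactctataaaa
The first matched base lies 35 bases before the start in Mmp13 and 46 in Mmp3. The letters occur in 6.75% of all promoters in the table. A set of 20 genes, Mmp13 and Mmp3 among them, was picked by hand from those named here, and 18 have an entry. Of these, 5 held the letters within 250 bases, the others being Flg and Il1f8, which were higher, and Igf1, which was lower. Their share is not that of all genes named here. Among genes with a promoter, 18 of 168 higher genes (10.7%), 35 of 441 lower genes (7.94%) and 566 of all 9283 (6.1%) held the letters. A match describes the letters only.

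Of 12 measured AP-1 subunits Fos and Fosb were higher and Batf lower. Fos was 18 against 6.43 and Fosb 2.35 against 0.609 FPKM. At 100 days both ran the other way, at 6.76 against 21.8 and 0.397 against 5.07 FPKM. Batf, an AP-1 factor of lymphocytes, was 0.267 against 3.45 FPKM. Jun, Jund and Fosl2 were 25.8 against 17.8, 20 against 20 and 29.9 against 20.4 FPKM, none of them counted. Of 21 other immediate early genes, which respond within minutes to many stimuli, Nr4a2 was higher (1.77) and Klf2 and Dusp2 lower. Egr1 was 14.1 against 7.68 FPKM (0.80).

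Of 24 genes of cell cycle arrest and senescence 5 were higher and 3 lower (median 0.09). The 11 measured CDK inhibitor genes held 1 of each. Cdkn2a, which encodes p16 and p19Arf, was 3.45 against 0.178 FPKM, and 1.44 FPKM in cKO skin and listed at 0 in control skin at 100 days. Cdkn1a, which encodes p21, was 51.5 against 41.2 FPKM, and Cdkn2c was lower (-1.12). None of 19 p53 targets was counted (median 0.08). Of 13 secreted factors tied to senescence 4 were higher, namely Mmp13, Mmp3, Il1b and Cxcl2, which also stand in the lists above, and the growth factor gene Areg and the receptor gene Plaur were lower. In all 4 the 300-day cKO stood above the other 3 groups. Proliferation genes lay mostly above 0 (27 of 33, median 0.56, against 5891 of all 12113 genes) with 4 higher. Bub1 and Plk1, kinases of mitosis, were 11.8 against 4.25 and 6.43 against 2.7 FPKM, the kinetochore protein Cenpf 18.5 against 7.49 FPKM, and Mki67, the common marker of cycling cells, 51.2 against 25.2 FPKM (0.99). Bub1b was the remaining one. The S phase genes Pcna and Mcm3 had ratios of -0.13 and -0.33.

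Insulin-like growth factor genes were lower on the ligand side. Igf1 (chr10:87858265-87937042) was 11 against 30.8 FPKM (-1.41), and at 100 days 15.9 against 45.7 FPKM (-1.47). Its annotated span overlaps an antisense transcript. Igf2 was 0.908 against 3.18 FPKM (-1.13). The receptors Igf1r, which signals, and Igf2r, which clears IGF2, were 16.5 against 11.4 and 33 against 20.6 FPKM, neither of them counted. Among binding proteins Igfbp6, which prefers IGF2, was 11.7 against 33.6 FPKM and Igfbp2 14 against 6.19 FPKM. The binding proteins thus ran both ways. Igfbp3 was level at 300 days (36.3 against 36.3 FPKM), while at 100 days it was 163 against 48 FPKM. H19, imprinted beside Igf2 and in a row shared with a microRNA, was 79.0 against 364 FPKM.

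Hair shaft keratins all had ratios above 0. Of 15 measured hair keratins 9 were higher and none lower (median 1.04). Krt33b and Krt36, of the type I class, were 146 against 59 and 13.9 against 4.82 FPKM, and Krt83 and Krt87, of the type II class, 231 against 98.5 and 119 against 48.1 FPKM. Hair keratins are close copies, so the split among them is uncertain. The median is 0.98 when both groups are scaled to equal totals. Of 41 keratin-associated proteins, which crosslink the shaft, 8 were higher and none lower (median 0.70). Krtap20-2 was 7.68 against 0.889 FPKM and Krtap19-1 144 against 57.7 FPKM. Hoxc13, the factor that drives hair keratin genes, was 30.8 against 13.2 FPKM (1.16), and the desmosome gene Dsc2 was lower (-1.07).

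The inner root sheath, the sleeve that moulds the growing shaft, did not follow. None of its 10 genes was counted (5 above and 5 below 0), with Krt71 at 589 against 556 and Krt72 at 219 against 297 FPKM. At 100 days 9 of the 10 were higher in cKO skin (median 1.70), and Krt71 was 1284 against 418 FPKM. Pigment cell genes were likewise apart at the 2 ages. At 300 days Oca2 and Trpm1 of 13 were lower (median -0.49), and at 100 days 5 were higher and none lower (median 0.88). Dct and Tyrp1, enzymes of melanin synthesis, were 21.9 against 38.1 and 31.8 against 41.2 FPKM at 300 days and 58.3 against 31.1 and 83.7 against 40.5 FPKM at 100 days. Inner root sheath and pigment genes are expressed while hair grows, and the stage of the hair cycle is not given in the labels. None of 22 hair follicle stem cell genes was counted, with Lgr5 at 9.79 against 5.88 and Krt15 at 759 against 747 FPKM. Of 38 hair cycle signals the Wnt antagonists Wif1 and Sfrp1 were higher (1.08 and 1.03).

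**Figure D4:**
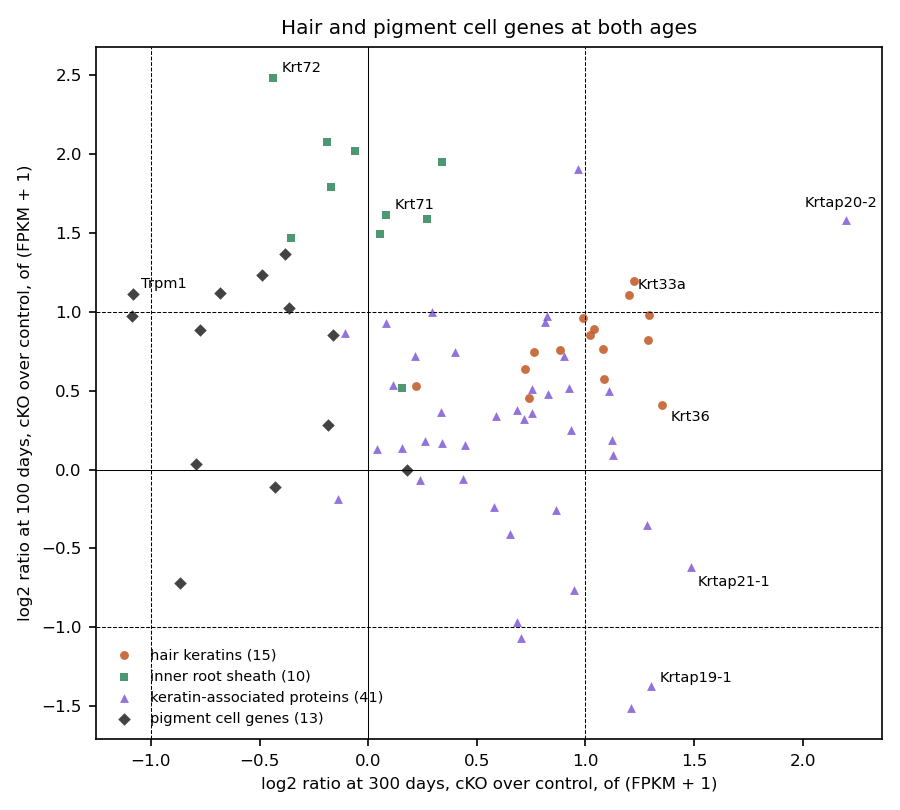
Log2 ratio of (FPKM + 1), cKO over control skin, at 300 days on the x axis and at 100 days on the y axis for hair and pigment cell genes, 1 point per gene, with dashed lines at a size of 1. Hair keratins lie above 0 at both ages, inner root sheath genes lie near 0 at 300 days and above 1 at 100 days with 1 exception, and most pigment cell genes lie left of 0 at 300 days and above 0 at 100 days.

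Of 22 clock genes 1 was higher and 3 lower (median -0.23), and the activators and repressors among them had 5 ratios above and 7 below 0. Arntl, which encodes the activator BMAL1, was 10.9 against 4.88 FPKM. Its partner genes Clock and Npas2 had ratios of 0.36 and 0.89. Of targets of that activator, Dbp was 8.79 against 38, Tef 59 against 169 and Per3 4.72 against 12.7 FPKM, and Bhlhe41 and Nr1d1 had ratios of -0.99 and -0.68. The output regulators Dbp and Tef act through D-boxes. Arntl and Dbp peak at opposite times of day, and the labels give no time of sampling. At 100 days Arntl was 11.8 against 3.99 and Dbp 14.1 against 34.4 FPKM, the same arrangement. The D-box letters TTATGTAA, searched on both strands, occur in 0.819% of all promoters. Of 8 clock genes Per3 held them, as a pair, and it is shown for that reason as the 250 bases before its start, chr4:151044666-151044915 on the minus strand (RefSeq, GRCm38.p6), with the matches in capitals.
Per3: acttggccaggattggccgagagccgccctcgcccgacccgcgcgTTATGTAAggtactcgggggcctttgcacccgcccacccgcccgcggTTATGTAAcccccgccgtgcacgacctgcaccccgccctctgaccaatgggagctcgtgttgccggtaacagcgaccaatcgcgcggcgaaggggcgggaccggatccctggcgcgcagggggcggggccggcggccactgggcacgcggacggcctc
The first match starts 205 bases before the start. The E-box letters CACGTG, which have no match in the Per3 window and so overlap none of its D-boxes, are in 6.02% of all promoters and in Tef and Bhlhe41 of the 8. Absence of a match says only that these letters are not in this window.

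Mitochondrial and antioxidant genes, which stand nearest to the function of Sod2, held few counted genes. Ratios of the respiratory chain and TCA cycle were nevertheless mostly below 0, where over all genes 6218 of 12113 were. Of 42 nuclear subunits of the respiratory chain Cox7c was the 1 counted, at 53.6 against 161 FPKM, and 36 had a ratio below 0 (median -0.19). In the superoxide-sensitive part of the chain, the succinate dehydrogenase subunits Sdha and Sdhb were 113 against 175 and 63.9 against 107 FPKM. For enzymes of the TCA cycle 21 of 22 ratios were below 0 (median -0.42), and Pcx, which refills the cycle and also serves fat synthesis, was lower at 26.1 against 55.1 FPKM. None of 6 measured genes of the mitochondrial genome was counted (median 0.20). Fatty acid oxidation genes had a median of -0.43. Of 25 glycolysis genes Pfkfb3, a regulator, was lower (-1.55), and the glucose carrier Slc2a1 was 12 against 5.8 FPKM.

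No antioxidant gene was higher by the size counted. Of 45 measured, Gpx3, Gstp1 and Gstm2 were lower (median -0.17). Over all genes 1.82% were higher and 5.07% lower, so these counts are close to those shares. Gpx3, a secreted glutathione peroxidase, was 51.8 against 152 FPKM, and had been 50.1 against 223 FPKM at 100 days. The other dismutases Sod1 of the cytosol and Sod3 of the matrix outside cells were 85.4 against 153 and 2.32 against 5.36 FPKM, ratios of -0.83 and -0.94. The cytosolic glutathione peroxidase Gpx1 was 108 against 143 FPKM, and the mitochondrial peroxiredoxin Prdx3 21.1 against 31.3 FPKM. Among targets of the stress factor Nrf2, Gclc and Txnrd1 were 17.7 against 15.1 and 22.7 against 18.1 FPKM. None of 24 genes of mitochondrial stress and the integrated stress response was counted (median 0.06), with Ddit3 at 20.2 against 16.7 and the matrix chaperone Hspd1 at 69.2 against 69.3 FPKM. None of 12 cytosolic heat shock genes was counted either (median 0.43).

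The remaining tissue lists were smaller differences. Of 12 Schwann cell and myelin genes 3 were lower, Cnp and Ngfr among them (median -0.81). None of 18 endothelial genes was counted (median -0.37), and Pecam1 was 19.3 against 35.2 FPKM. Of 22 skeletal muscle genes 2 were counted as higher, Mb and Ttn, and Tnnt1 as lower (median 0.24). Myoglobin (Mb) was 457 against 185 FPKM. Titin (Ttn) was 1175 FPKM and listed at 0 in control skin, and at 100 days it was 483 against 1067 FPKM, while the fast myosin gene Myh4 was 1216 against 1017 FPKM at 300 days. The 0 of Ttn can be a failed estimate and is not read as low expression. Among single genes of the highest ratios outside these groups, Rhod, a small GTPase of endosomes, was 109 against 6.85 FPKM and C1qtnf3, a secreted C1q-like factor, 9.2 against 0.953 FPKM. Ribosomal protein genes (none of 21 counted, median -0.05) and abundant noncoding RNAs (none of 10, median 0.14) were level.

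Ratios at the 2 ages can be set side by side because the groups share no sample. At 100 days 256 genes were higher (2.11%) and 519 lower (4.28%), 6.4% in all. Of the 614 genes lower at 300 days 154 were lower at 100 days, 25.08% of the former and 29.67% of the latter. Of the 220 higher genes 37 were higher at 100 days, 16.82% and 14.45%. The shared lower genes hold 19 of the adipocyte list and 15 of the glandular list. Across the 12113 genes the ratios at the 2 ages had a Pearson r of 0.371 and a Spearman rho of 0.382, and genes are not independent replicates.

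Control skin at 700 and at 50 days, which shares no sample with the 300-day groups, was laid beside these values as context. Of the same 12113 genes 71 were higher at 700 days (0.586%) and 392 lower (3.24%). Of the 71, 33 were also higher in cKO than control skin at 300 days, which is 46.5% of the former and 15% of the 220. Uty, Kdm5d, Ddx3y and Eif2s3y are 4 of the 33, since the 700-day controls have the Y-linked transcripts that the 50-day controls lack, and age and this difference cannot be told apart there either. Most of the others known from the lists are epidermal. Krt6b was 19 at 700 days against 1.72 FPKM at 50 days, Krt16 36 against 3.71 FPKM, and BC100530 86.7 against 11.4 FPKM. The protease gene Klk6 and the barrier genes Hrnr and Serpinb12 were 23.9 against 4.98, 59.1 against 20.9 and 20 against 6.51 FPKM. C7 was 11.3 against 0.24 FPKM. Cdkn2a had the largest ratio of the 33 at 700 days, at 387 against 0.0545 FPKM, far above its 3.45 FPKM in cKO skin at 300 days. No other group exceeded 3.45 FPKM. With 1 value per group, an error of estimate in the 387 FPKM cannot be told from expression. Flg is not among them, at 365 against 230.3 FPKM.

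Some hair and muscle genes ran the other way at 700 days, while fat genes such as Plin1 were lower in both comparisons. Another 23 of the 220 higher genes were lower at 700 days, 10.5% of the 220 and 5.87% of the 392. They include hair keratins such as Krt35, at 3 against 16.1 FPKM, and genes of striated muscle such as Csrp3, at 0.47 against 11.4 FPKM. Csrp3 was 84.3 against 22.4 FPKM in cKO and control skin at 300 days. Of the 614 lower genes 67 were lower at 700 days too (10.9% and 17.1%), among them Plin1 of fat, at 4.71 against 19.3 FPKM, and Krt19, at 0.261 against 11.9 FPKM. The 4 lower genes that were higher at 700 days include Igkc, at 2.38 against 0.294 FPKM.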

How the data were processed

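The authors deposited FPKM per gene and group in 46744 rows, made with HISAT2, Cufflinks and Cuffdiff on mm10, per the submitters' processing notes. Versions, gene annotation and how samples were combined are not given in the sources used here. Per the labels' protocols, 1 of 2 kits removed ribosomal RNA, without saying from which sample, and directional libraries were read for 75 cycles. Values per sample are not analysed here, so depth is unknown, an exact 0 can be a failed estimate, and the planned limma test was replaced by log2 ratios of (FPKM + 1).

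Rows with 1 symbol of a named gene gave 19216 genes (18915 in GENCODE M21 of GRCm38), with the highest row per symbol. A gene entered where its FPKM averaged 1 or more in the 6 groups. Another 1057 rows carry several symbols and were used only where named.

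The members and the 59 gene lists (1432 genes, 1152 measured) were chosen with earlier results of these data known. Genes were named by rule: Sod2, Igf1 and Junb, the 15 highest and lowest ratios among genes reaching 5 FPKM, genes at 0 in 1 group, and list members past the size counted, with defining markers. Other genes were chosen after their values were seen. Some genes that met the rule are not reported here. The counting was tested on simulated data. Alternatives were other pseudocounts, filters and scalings. Python 3.11.15, pandas 2.3.3, numpy 2.4.6 and matplotlib 3.10.9 were used.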

Additional observations from a re-analysis of the deposited data

Results flagged for a closer look

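Some genes named above were past the size counted in opposite directions at the 2 ages, which drew attention to them. With 1 value per group the difference between the ages was not tested. Fos and Fosb, the AP-1 subunits, had ratios of 1.36 and 1.06 at 300 days and -1.55 and -2.12 at 100 days. Krtap19-1 and Krtap19-4, neighbouring copies of the hair shaft, had 1.30 and 1.21 at 300 days and -1.37 and -1.51 at 100 days. The stefin BC100530 had 5.79 and -1.11. Lower at 300 and higher at 100 days were the follicle chemokine Cxcl13 (-1.63 and 4.02), the lysozyme Lyz1 (-1.27 and 1.22) and the pigment cell channel Trpm1 (-1.08 and 1.11).

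Over all genes, 11 were higher at 300 and lower at 100 days, and 11 the reverse. Among those in no list, Sbk2, a kinase gene, was 53.9 against 10.4 FPKM at 300 days and 4.4 against 18.3 FPKM at 100 days. Serpinb6d, a protease inhibitor gene, was 9.78 against 3.04 and 1.6 against 11.8 FPKM.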

How the results depend on the processing

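With 1 value per group no error can be given, and genotype and the sex-linked difference cannot be told apart. No paired analysis was possible because each group has 1 deposited value and the result comes from no test. Counts that changed by more than 1.5 times were 370 higher genes with a pseudocount of 0.1, 146 higher and 272 lower genes when the mean had to reach 5 FPKM, and 35 higher and 120 lower genes at a size of at least 2. The other counts stayed within 1.5 times of 220 and 614, such as 250 and 765 with no filter, 241 and 564 with a common median, 185 and 670 with equal totals, and, chosen after seeing the data, 214 and 579 for protein-coding genes and 243 and 655 with rows of several symbols added. Of 486 list medians 480 kept their side of a size of 1 and none changed sign past it. The exceptions were dendritic cells (-1.23 and -1.04) and neutrophils (1.14 and 1.08) at pseudocounts of 0.1 and 0.5, lymph node stroma (-0.68) with no filter and hair keratins (0.98) with equal totals. All 165 values of single named genes stayed on their side. Leaving out a replicate was not possible with group values, and what depth limits is unknown.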

Other observations

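Many lower genes outside the lists are known from white blood cells in general, and they were chosen here after their values were seen. Ptprc, which encodes CD45, the phosphatase on all nucleated blood cells, was 13 against 89.2 FPKM. Coro1a, an actin regulator of leukocytes, was 4.7 against 58 FPKM, and Ikzf1, the transcription factor Ikaros, 1.61 against 14.1 FPKM. The adaptor gene Traf3ip3 had a ratio of -3.69. All 5 measured Gimap genes, small GTPases of lymphocytes, were lower (median -2.21). So were 13 of 14 genes with symbols of immunoglobulin segments (median -3.21). Of 10 genes with symbols of T cell receptor segments, gamma-delta genes among them, only 4 were lower (median -0.51). At 100 days Ptprc was 8.19 against 11.2 and Coro1a 4.15 against 10.8 FPKM.

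Imprinted genes of the growth network were lower where they were counted. Nnat, also a gene of fat, was 6.77 against 34.2 FPKM, and of 11 measured members Nnat and Igf2 passed the size counted (median -0.43). Of 17 measured Hox and limb identity genes 1 passed it, Hoxc13, which serves the hair shaft (median 0.03). Tbx15, which patterns the skin of back and belly, was at 21.6 against 20.9 FPKM.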
